A study of Mus musculus with 12 samples.

Results

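The mitosis and spindle genes are a set of 45 mouse genes whose products carry a cell from the onset of mitosis to cytokinesis. The set was given as a list of symbols, and each gene was read by its probe set with the highest mean signal over 12 arrays. Of the 45 genes, 44 could be read, among 18193 genes in all. Ccnb1, which encodes cyclin B1, had no probe set annotated to its symbol alone.

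The study compared mouse acute myeloid leukaemia (AML) lines that are resistant or sensitive to Ara-C (cytarabine), a cytidine analogue that blocks DNA synthesis once phosphorylated. B140H is a highly Ara-C-resistant line and B140P is the Ara-C-sensitive parental line it was derived from, while B117H is the resistant and B117P the sensitive line of a second pair. All 4 lines came from leukaemias of BXH-2 mice, an inbred strain prone to myeloid leukaemia from a replicating retrovirus, and each had 3 arrays, lettered A, B and C. The labels give all lines the same text, on exposure to increasing Ara-C and passage in medium without it, and name no age, other allele or clone. Each lineage therefore has 1 resistant line, and the labels do not say whether the 3 arrays are separate cultures. The p-values below therefore reflect array-to-array spread alone, which may be technical.

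Cells enter mitosis when Cdk1, bound to A- and B-type cyclins, is switched on by Cdc25 phosphatases and by Polo and Aurora kinases. Microtubules then attach to kinetochores, and the spindle checkpoint holds the anaphase-promoting complex back until every chromosome is attached. Most of these genes are transcribed in a burst in G2 and mitosis, and many carry a short promoter element, the CHR (cell cycle genes homology region), often near CCAAT boxes. Their levels in a culture are widely used as a readout of proliferation. In bulk RNA from a culture, fewer cells in mitosis and less RNA per mitotic cell cannot be told apart.

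The promoters of 6 members are shown because they contrast the members with the largest differences among the lines (Depdc1a, Ninl, Ccnb2 and Pttg1) with a checkpoint kinase and a spindle motor (Ttk and Kif11). Ttk differed less than those members but was itself called in B140H and between the parental lines. Sequences are from RefSeq on GRCm38.p6, from 120 bases before to 15 bases after the annotated start, read 5′ to 3′ in the direction of transcription. Capitals mark the CHR, TTTGAA or its reverse complement TTCAAA, and the CCAAT box, CCAAT or its reverse complement ATTGG. Depdc1a lies on the plus strand at chr3:159495313-159495447, Ninl on the minus strand at chr2:151009384-151009518 and Ccnb2 on the minus strand at chr9:70421540-70421674. Pttg1 lies on the minus strand at chr11:43425967-43426101, Ttk on the plus strand at chr9:83834569-83834703 and Kif11 on the plus strand at chr19:37376262-37376396.
Depdc1a: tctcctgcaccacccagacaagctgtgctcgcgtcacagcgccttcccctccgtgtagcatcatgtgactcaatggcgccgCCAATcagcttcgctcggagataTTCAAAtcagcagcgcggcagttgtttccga
Ninl: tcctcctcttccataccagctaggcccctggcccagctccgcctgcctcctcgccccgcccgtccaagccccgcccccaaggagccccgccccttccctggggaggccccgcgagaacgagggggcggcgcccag
Ccnb2: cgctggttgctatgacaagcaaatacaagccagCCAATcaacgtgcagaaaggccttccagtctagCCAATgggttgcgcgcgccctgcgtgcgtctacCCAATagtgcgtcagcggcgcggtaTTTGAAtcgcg
Pttg1: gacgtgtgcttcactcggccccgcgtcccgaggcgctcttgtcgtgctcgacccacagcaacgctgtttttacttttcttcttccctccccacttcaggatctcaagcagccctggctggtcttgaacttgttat
Ttk: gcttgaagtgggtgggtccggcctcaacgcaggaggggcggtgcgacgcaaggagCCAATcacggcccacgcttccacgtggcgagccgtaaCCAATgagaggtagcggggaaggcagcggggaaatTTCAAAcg
Kif11: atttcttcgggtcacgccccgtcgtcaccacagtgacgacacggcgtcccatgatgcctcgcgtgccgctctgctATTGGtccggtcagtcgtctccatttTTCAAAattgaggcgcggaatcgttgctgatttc
The stretches of Depdc1a, Ccnb2, Ttk and Kif11 each held a CHR and at least 1 CCAAT box, and those of Ninl and Pttg1 held neither. Ccnb2 had 3 CCAAT boxes, with first bases at -87, -54 and -21 from the start, and a CHR with its first base at 5 after it.

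Promoter windows of 300 bases, from 250 before to 50 after the start, were listed for 37 of the 45 members. A CHR on either strand stood in a window of 25 of these 37 members (67.6%), in 40 of 87 other mitosis genes with a window (46.0%) and in 20.2% of all 27025 genes with one. The CCAAT box stood in a window of 27 members (73.0%), in 62.1% of the other mitosis genes and in 41.1% of all genes. Both motifs stood in the window for 22 members (59.5%), 32.2% of the other mitosis genes and 7.97% of all genes. The motifs can share no more than an end base, and a match is a description of letters, not a bound site.

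**Figure D1:**
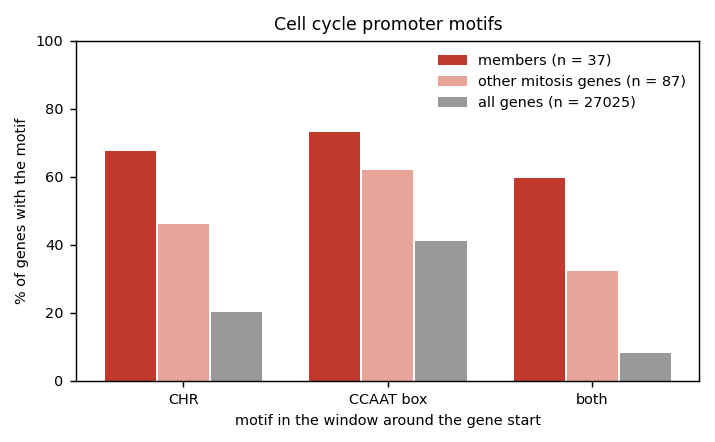
Percent of genes whose 300-base promoter window holds the CHR string, the CCAAT box string or both, on either strand, for the 37 members, the 87 other mitosis genes and all 27025 genes with a window. The members stand highest for each motif, at 67.6%, 73.0% and 59.5%.

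Array medians lay between 117.8 and 131.5 intensity units. Array B of B140H stood apart with the highest median, and its median gene lay 0.13 log2 units above that gene's mean over all arrays, while its median member did not (-0.00). Myeloid progenitor markers were measured for 11 of 12 listed genes. Their line means ran from 5.15 to 14.62 log2 units, and the pan-leukocyte gene Ptprc averaged 13.12, 13.33, 13.73 and 13.50 in B140H, B140P, B117H and B117P. Mpo, the granule peroxidase, averaged 7.13, 9.54, 14.04 and 14.62 in the same order, and the progenitor receptor Kit 5.53, 5.15, 10.51 and 10.11, so both were lower in the B140 lines. Elane, Prtn3, Ctsg, Ms4a3, Cebpa, Itgam and Csf1r were also called lower in B140P than in B117P, while Spi1 and Ptprc were not called. Prtn3 and Ctsg still averaged 12.08 and 13.15 in B140H. Within the pairs, Mpo was called lower in B140H than in B140P (-2.41). Ms4a3 (-3.03), Elane (-1.63), Prtn3 (-0.78) and Ctsg (-0.51) were called lower in B117H than in B117P. No other measured myeloid marker was called in either pair. Line means ran from 4.91 to 7.72 for T lymphoid markers, 5.69 to 7.82 for erythroid markers, 4.21 to 7.15 for fibroblast markers and 3.98 to 8.43 for epithelial markers. B lymphoid markers, measured for 5 of 6 listed genes, ran from 5.99 to 12.08. Vpreb1, of the surrogate light chain, averaged 10.19 in B140H, 11.59 in B140P, 12.08 in B117H and 9.31 in B117P, so that it fell by 1.40 in B140H and rose by 2.78 in B117H. Cd79b, of the B cell receptor, averaged 11.43, 10.84, 5.99 and 6.74 in the same lines and Cd79a 9.12, 8.25, 6.14 and 6.22, both called higher in B140P than in B117P. Cd79b was also called lower in B117H than in B117P (-0.75). The other measured B lymphoid markers were called in no comparison. Pax5 averaged 7.70, 7.44, 7.43 and 7.42, and Ms4a1 6.30, 6.42, 6.43 and 6.42. The files hold no detection calls, so no marker can be given as absent. The part of these differences in the results below was not tested.

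Few of the mitotic genes passed the test between a resistant line and its parent. In B140H against B140P, 4 of 44 members passed the test, 3 higher and 1 lower, which is 9.09% of members beside 6.56% of all genes (2.81% higher and 3.75% lower). In B117H against B117P, 5 members passed, 4 higher and 1 lower, which is 11.4% of members beside 9.41% of all genes (4.73% higher and 4.68% lower). Both shares are near the background. The test was limma's moderated test over all 12 arrays, with Benjamini-Hochberg adjustment over 45037 probe sets and a call at an adjusted p under 0.05. All changes are log2 differences of log2(value + 1), resistant minus parental.

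The median member change was 0.04 in B140H and 0.06 in B117H, beside 0.05 and -0.01 over all genes. For 38 members in B140H and 37 in B117H, the 95% interval of the change lay within a fold of 1.5 in either direction, or 86.4% and 84.1% of members. The same held for 83.7% and 82.5% of all genes. The 3 resistant arrays lay wholly above or below the 3 parental arrays for 18 members in B140H (40.9%), beside 23.7% of all genes, and for 15 members in B117H (34.1%), beside 26.2% of all genes. The median size of a member's change, whatever its sign, was 0.17 in B140H and 0.13 in B117H, beside 0.12 and 0.11 over all genes. Here and below, the background of all genes was not matched to the members in signal. The median residual SD was 0.109 log2 units for members and 0.154 for all probe sets. The part of signal in these values was not tested. In all, 36 members passed in neither pair, 8 in at least one and 1, Ninl, in both. The matching shares over all genes were not counted, so these counts are not a result about the members. In each pair alone, the share of members called was near that of all genes.

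With the array letter as a replicate block, 5 members passed in the B140 pair, beside 4 without it, and 1827 genes beside 1194. The added member was Anln (adjusted p = 0.0457 in the limma fit with the block). Without all arrays of one letter, 0, 1 or 0 members passed in the B140 pair (letters A, B and C left out) and 2, 2 and 2 in the B117 pair. Over all genes the counts also fell, to 489, 354 and 378 in the B140 pair and 1020, 810 and 588 in the B117 pair. Without single arrays the member counts ran from 3 to 5 in the B140 pair and from 2 to 5 in the B117 pair, with 3 in the B117 pair without B117H B and 2 without B117H C or B117P C. The counts over all genes then ran from 746 to 1256 and from 1174 to 1913.

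**Figure D2:**
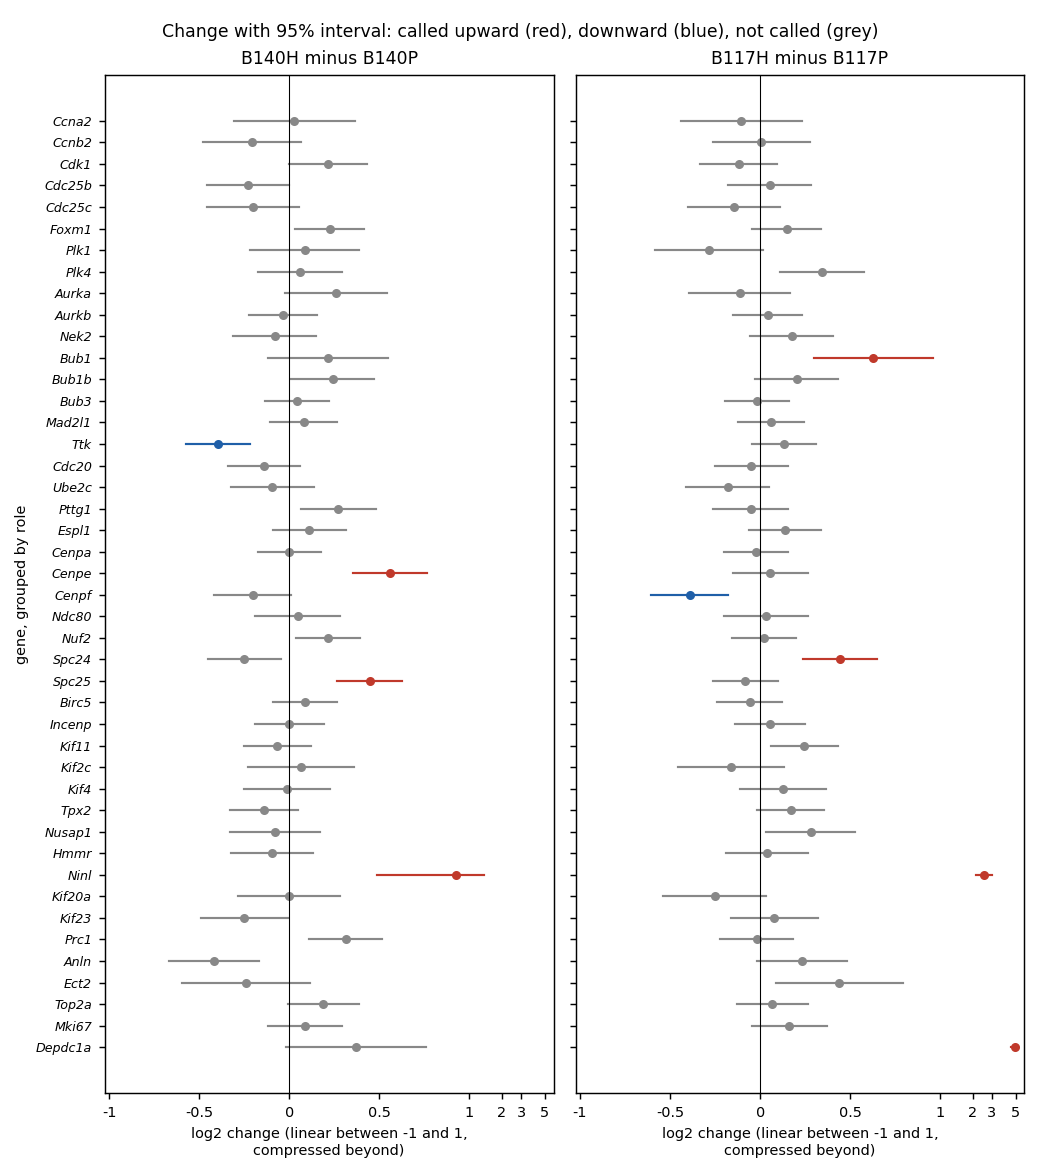
Log2 change of each of the 44 members with its 95% interval, B140H minus B140P and B117H minus B117P. Most intervals span or lie near 0, while Depdc1a in the B117 pair stands at 4.89 and Ninl at 0.93 in the B140 pair and 2.56 in the B117 pair.

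None of the 6 measured genes of mitotic entry passed in either pair, and their changes ran from -0.23 to 0.22 in B140H and from -0.15 to 0.15 in B117H. Cdk1, the kinase that drives entry, averaged 12.17 ± 0.14 log2 units in B140H and 11.95 ± 0.06 in B140P, and 11.91 ± 0.09 in B117H and 12.03 ± 0.11 in B117P (SD, n = 3 each). Foxm1, a transcription factor for G2 and mitotic genes, averaged 9.85 ± 0.12 in B140H, 9.62 ± 0.05 in B140P, 9.54 ± 0.04 in B117H and 9.39 ± 0.05 in B117P. The resistant arrays lay above their parental arrays in both pairs for Foxm1, but neither change passed (0.22, adjusted p = 0.232, and 0.15, adjusted p = 0.521, limma).

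The Polo, Aurora and NIMA kinases gave no call among 5 members in either pair. Aurkb, the catalytic kinase of the chromosomal passenger complex, had line means within 0.12 log2 units of each other across all 4 lines. Its scaffold partner Incenp spanned 0.06 and the centromeric histone Cenpa 0.08, so these 3 were the flattest members. Over all 44 members the median span of the line means was 0.41, beside 0.29 over all genes. It was under 0.25 for 11 members (25%, beside 43.8% of all genes) and over 1 for 4 members, Depdc1a, Ninl, Ccnb2 and Pttg1 (9.09%, beside 11.2%). All genes were again not matched to the members in signal.

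**Figure D3:**
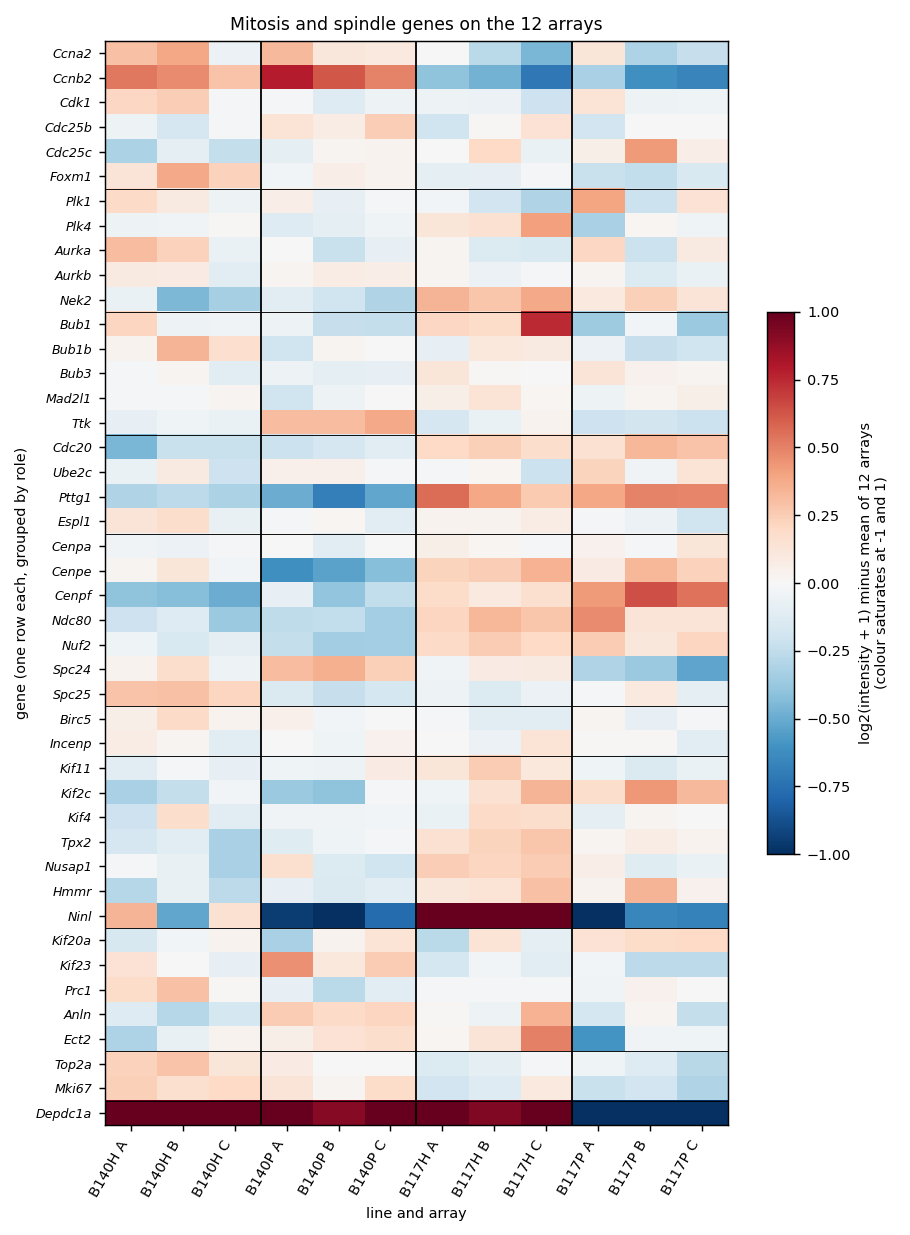
Level of each of the 44 members on the 12 arrays, as the difference in log2 units from the gene's mean, with the lines ordered B140H, B140P, B117H and B117P and genes grouped by role. The 3 B117P arrays of Depdc1a are below, and the 3 B117H arrays of Ninl above, all other arrays of their gene. The colour scale saturates, so it does not show the full size of these differences. The widest spans of the line means are those of Depdc1a (5.15), Ninl (2.69), Ccnb2 (1.17) and Pttg1 (1.02).

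Depdc1a encodes a DEP-domain protein that in human cells is most abundant in mitosis. Its levels in log2 units were 9.07, 8.78 and 9.44 in B140H and 8.66, 8.56 and 8.96 in B140P. In B117H they were 8.77, 8.58 and 9.16, against 3.96, 4.06 and 3.83 in B117P. The 3 B117P arrays were low and the other 9 arrays shared a range, so the outlying line was a parental one. Mean intensity was 463 ± 98.9 in B117H and 14.5 ± 1.24 in B117P (SD, n = 3 each). The change in B117H was 4.89, or 29.6-fold, with a 95% interval of 4.50 to 5.28 (adjusted p = 7.58e-09, limma). The B117P value lay near the lowest intensity of the files, 7.65 units, so the size of the fold is not exact.

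In B140H the change of Depdc1a was 0.37 with an interval of -0.02 to 0.76 (adjusted p = 0.378), and the groups overlapped. The changes of the pairs differed by -4.52 (B140 pair minus B117 pair, adjusted p = 5.86e-07). Depdc1a was read by 1 probe set. Its paralog Depdc1b averaged 9.11 ± 0.17 in B140H, 9.40 ± 0.13 in B140P, 9.59 ± 0.15 in B117H and 9.62 ± 0.17 in B117P, and passed in neither pair.

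Ninl, a ninein-like protein of the centrosome that anchors microtubules, rose in both resistant lines. Its levels were 5.32, 4.46 and 5.14 log2 units in B140H and 4.04, 3.90 and 4.21 in B140P. They were 6.61, 6.62 and 6.98 in B117H and 3.90, 4.33 and 4.30 in B117P. Every resistant array lay above every parental array of its pair, and the 3 B117H arrays were above all others. The change was 0.93 in B140H, or 1.90-fold (interval 0.49 to 1.36, adjusted p = 0.0185), and 2.56 in B117H, or 5.89-fold (interval 2.12 to 2.99, adjusted p = 6.66e-06, limma). The rise was larger in the B117 pair, with a difference of -1.63 (adjusted p = 0.0033).

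Ninl is a dim probe set, with mean intensities of 31.4 ± 9.30 in B140H, 15.6 ± 1.83 in B140P, 106 ± 16.6 in B117H and 17.3 ± 2.91 in B117P, and it has no second probe set. Without B140H A, B140H C, B140P A or B140P B the B140 change no longer passed (adjusted p = 0.0743, 0.0628, 0.0644 and 0.0875), while the B117 change passed without any single array or letter. Nin, the paralog that anchors microtubules at the mother centriole, differed from its parent by -0.23 in B140H and by -0.23 in B117H, with no call in either pair. The other 6 spindle motor and microtubule genes, Kif11, Kif2c, Kif4, Tpx2, Nusap1 and Hmmr, gave no call in either pair.

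Kif11, the motor that pushes spindle poles apart, had 3 probe sets that differed in the size or sign of the change. The brightest gave a difference of 0.25 in B117H (adjusted p = 0.13), the one of nearly equal signal 0.49 (adjusted p = 0.0117) and the dimmest -0.50 (adjusted p = 0.575, limma). The dimmest was not called and moved with the array letter, its A arrays averaging 0.92 log2 units above its C arrays.

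Of the 7 kinetochore members, 2 were called in B140H (28.6%, beside 6.56% of all genes), Spc25 and Cenpe, both higher, beside 2.81% higher of all genes. In B117H, Spc24 was higher and Cenpf lower (28.6%, beside 9.41% of all genes, 4.73% higher and 4.68% lower). The role's count was not tested, and each of these calls was lost when the arrays of any one letter were left out. Spc24 and Spc25 form one end of the Ndc80 complex, which binds microtubules at its other end through Ndc80 and Nuf2. Spc25 measured 11.39, 11.39 and 11.32 log2 units in B140H against 10.96, 10.87 and 10.93 in B140P, and 11.05, 10.96 and 11.04 in B117H against 11.09, 11.20 and 11.01 in B117P. The B140H arrays lay above all others, and the B117 groups overlapped. The change was 0.45 in B140H (interval 0.27 to 0.63, adjusted p = 0.00707) and -0.08 in B117H (adjusted p = 0.831).

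Spc24 measured 10.88, 11.01 and 10.79 in B140H against 11.15, 11.20 and 11.08 in B140P. It measured 10.81, 10.92 and 10.93 in B117H against 10.54, 10.47 and 10.31 in B117P. The resistant arrays were all below the parental ones in the B140 pair and all above them in the B117 pair. The change was -0.25 in B140H (adjusted p = 0.212) and 0.45 in B117H (interval 0.24 to 0.65, adjusted p = 0.0111, limma). The pairs differed by -0.69 for Spc24 (adjusted p = 0.00613) and by 0.53 for Spc25 (adjusted p = 0.0144), so the changes of these partners differed between pairs in opposite directions. The Spc24 call in B117H was lost without B117H B, B117H C or B117P C (adjusted p = 0.0503, 0.0512 and 0.0597). A second, dim probe set of Spc25 gave -0.03 in B140H (adjusted p = 0.95).

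Ndc80 and Nuf2 passed in neither pair. The difference was 0.05 in B140H (interval -0.19 to 0.28) and 0.03 in B117H (-0.20 to 0.27) for Ndc80, and for Nuf2 it was 0.21 in B140H (0.04 to 0.39, adjusted p = 0.221) and 0.02 in B117H (-0.16 to 0.20).

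Cenpe, the kinetochore motor that carries chromosomes to the spindle equator, measured 9.96, 10.05 and 9.90 in B140H against 9.32, 9.40 and 9.51 in B140P. It measured 10.15, 10.18 and 10.28 in B117H against 10.02, 10.26 and 10.16 in B117P. B140P was the low line, and the B117 groups overlapped. The change was 0.56 in B140H (interval 0.35 to 0.77, adjusted p = 0.00376) and 0.06 in B117H (adjusted p = 0.937, limma). The difference of 0.50 passed (adjusted p = 0.0377) but not with the arrays centred on their medians (0.46, adjusted p = 0.0503) or without any one of the arrays other than B117P A, B140P C and B140H C (adjusted p = 0.0516 to 0.1). A second probe set gave 0.47 in B140H (adjusted p = 0.713) and varied with the array letter.

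Cenpf, a large kinetochore protein of late G2, fell in B117H. It measured 11.21, 11.13 and 11.19 in B117H against 11.46, 11.68 and 11.58 in B117P. In B140H it measured 10.62, 10.60 and 10.53, against 10.95, 10.63 and 10.78 in B140P. The resistant arrays were below the parental ones in both pairs. The change was -0.39 in B117H (interval -0.61 to -0.18, adjusted p = 0.0294) and -0.20 in B140H (adjusted p = 0.379), and the B117 call was lost without B117H A, B117H B, B117H C, B117P B or B117P C (adjusted p = 0.0683 to 0.121, limma). The other 2 probe sets of Cenpf were dimmer and gave no call.

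**Figure D4:**
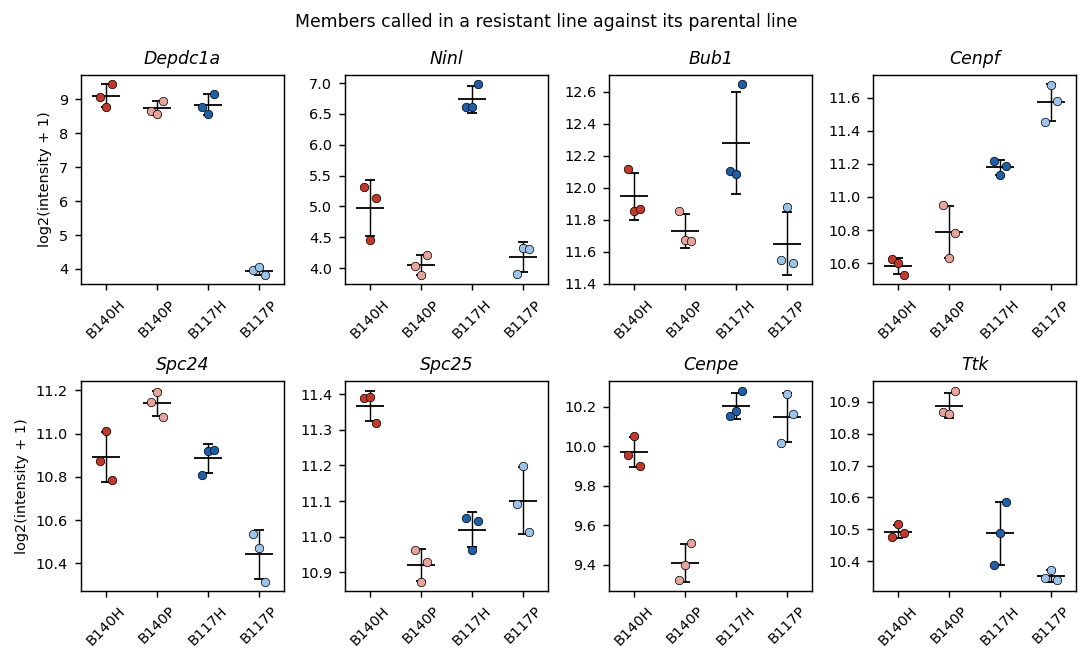
Levels in log2 units of the 8 members called in at least one resistant-parental pair, Depdc1a, Ninl, Bub1, Cenpf, Spc24, Spc25, Cenpe and Ttk, in B140H, B140P, B117H and B117P. Points are arrays, bars are means and error bars are SD (n = 3). Depdc1a is low in B117P alone, at 3.95 on average, and Ninl is highest in B117H, at 6.74.

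Of the 5 spindle checkpoint genes, 1 was called lower in B140H and 1 higher in B117H, beside 3.75% and 4.73% of all genes. The role's count was not tested. Ttk, the Mps1 kinase that starts checkpoint signalling, measured 10.47, 10.52 and 10.49 in B140H against 10.87, 10.86 and 10.93 in B140P. It measured 10.39, 10.49 and 10.59 in B117H against 10.35, 10.37 and 10.34 in B117P. B140P was the high line, and the other 9 arrays lay between 10.34 and 10.59. The change was -0.40 in B140H (interval -0.57 to -0.22, adjusted p = 0.0137, lost without B140P C at 0.0703) and 0.14 in B117H (adjusted p = 0.537), and the difference of -0.53 passed (adjusted p = 0.0128, limma). A dimmer second probe set gave -0.34 in B140H (adjusted p = 0.645).

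Bub1, a kinase that recruits checkpoint proteins to kinetochores, measured 12.11, 12.09 and 12.65 in B117H against 11.54, 11.88 and 11.53 in B117P. In the B140 pair it measured 12.12, 11.85 and 11.87 in B140H, against 11.85, 11.67 and 11.67 in B140P. The resistant arrays lay above the parental ones in both pairs, though in the B140 pair B140H B and B140P A were nearly level. The change was 0.63 in B117H (interval 0.30 to 0.96, adjusted p = 0.0246) and 0.22 in B140H (adjusted p = 0.603), and a second probe set rose by 0.56 in B117H (adjusted p = 0.0307, limma). The call of the brighter probe set was lost without B117H C, B117P A or B117P C (adjusted p = 0.0961, 0.0868 and 0.108). The difference between pairs was not called (-0.41, adjusted p = 0.367).

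The checkpoint partners Bub1b, Bub3 and Mad2l1 gave no call in either pair. Neither did the anaphase genes Cdc20, Ube2c, Pttg1 and Espl1, whose changes ran from -0.14 to 0.27 in B140H and from -0.18 to 0.14 in B117H. Chromosome structure genes were also without a call. Mki67, the Ki-67 coat of mitotic chromosomes and a standard proliferation marker, averaged 13.19 ± 0.04 in B140H, 13.10 ± 0.08 in B140P, 12.91 ± 0.15 in B117H and 12.75 ± 0.06 in B117P (SD, n = 3 each). Its changes were 0.09 (interval -0.12 to 0.29) and 0.16 (interval -0.05 to 0.37). Top2a, the topoisomerase that untangles sister chromatids, differed by 0.19 (-0.01 to 0.39) in B140H and 0.07 (-0.13 to 0.26) in B117H.

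Among midzone and cytokinesis genes, no member passed in either pair in the main fit, which has no term for the letter. Anln, the scaffold anillin of the contractile ring, measured 11.09, 10.93 and 11.04 in B140H against 11.47, 11.41 and 11.43 in B140P, and 11.22, 11.17 and 11.56 in B117H against 11.04, 11.24 and 10.98 in B117P. The B140H arrays lay wholly below B140P, while the B117 groups overlapped. The change in B140H was -0.42 (adjusted p = 0.0619, and 0.0457 with the letter as a replicate block), and it also passed with a pseudocount of 16, with an intensity trend and robust prior and over brighter probe sets only (0.0458, 0.0358 and 0.0351, limma). Without B117H C this change passed as well (adjusted p = 0.0298, limma). The changes of -0.42 in B140H and 0.23 in B117H (adjusted p = 0.375) differed by -0.65 (adjusted p = 0.0272, limma). That difference was lost without B117P A, B117P C, B117H C, B140P A, B140P B, B140P C or B140H B (adjusted p = 0.0552 to 0.0754).

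The pairs' changes differed for 7 of 44 members, 15.9% beside 10.4% of all genes. The change was higher in the B140 pair for Cenpe and Spc25, 2 members beside 4.91% of all genes, and higher in the B117 pair for Depdc1a, Ninl, Spc24, Anln and Ttk, 5 members beside 5.51%. The 95% interval of the difference lay within a fold of 1.5 for 22 members (50%), beside 53.3% of all genes. With the letter as a replicate block the count was 8 members, and 2739 genes passed, beside 1896 without it. Over both pairs together, the average change passed for 5 members, 11.4% beside 7.86% of all genes (3.69% higher and 4.17% lower). Its interval lay within a fold of 1.5 for 41 members (93.2%), beside 93.5% of all genes. Depdc1a (2.63), Ninl (1.74), Bub1 (0.42, adjusted p = 0.0393) and Cenpe (0.31, adjusted p = 0.0159) were higher and Cenpf (-0.30, adjusted p = 0.0247, limma) was lower. The value of Depdc1a is carried by the B117 pair. The Bub1 average passed in 12 of 24 other settings and the Cenpf average in 13 of 24. Bub1 missed the threshold with the arrays centred on their medians (adjusted p = 0.0641) and without any single array other than B140H B, B117H A, B117H B or B117P B (0.0524 to 0.105, limma). Cenpf missed it with the probe sets averaged (adjusted p = 0.547) and without B140H C, B140P A, B140P C, B117H B, B117H C, B117P B or B117P C (0.0537 to 0.0671, limma). The count was 3 without B140H C, B140P A, B140P C, B117H C or B117P C.

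Of 102 other mitosis genes, all measured, 9 passed in B140H, 6 higher and 3 lower, and 12 in B117H, 5 higher and 7 lower. These are 8.82% and 11.8%, near the 6.56% and 9.41% of all genes. In B140H the largest called changes were in Ska3, of the Ska complex that couples kinetochores to microtubules (-0.69, adjusted p = 0.000762), and Cdca2, a phosphatase regulator of chromatin (-0.60, adjusted p = 0.00984). Cenpm, of the inner kinetochore, followed (0.58, adjusted p = 0.0429), then Bora, an activator of Aurora A (-0.56, adjusted p = 0.0252). In B117H they were in the inner kinetochore gene Cenpo (0.84, adjusted p = 0.000487), the Cdk1-binding gene Cks2 (-0.73, adjusted p = 0.000133), the anaphase-promoting complex subunit Anapc4 (-0.68, adjusted p = 0.000377) and the condensin II subunit Ncapg2 (0.60, adjusted p = 0.00336, limma). On the average of the pairs, the inner kinetochore gene Cenph had the largest called change, 0.50 (adjusted p = 0.000526), with 0.53 in B140H and 0.46 in B117H, both called.

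More members differed between the parental lines than between either of them and its resistant line. Between B140P and B117P, 14 of 44 members passed, 6 higher and 8 lower in B140P. That is 31.8% of members beside 23.8% of all genes (12% higher and 11.8% lower). The 95% interval lay within a fold of 1.5 for 29 members (65.9%), beside 72% of all genes. The median member difference was -0.05, beside 0.00 over all genes, and the arrays did not overlap for 27 members (61.4%), beside 38.6% of all genes. With the letter as a replicate block 16 members passed, adding Anln (adjusted p = 0.046, limma) and Ect2. Over all genes 5139 passed with the block, beside 4333 without it. The parental and resistant comparisons share the parental arrays, so their values are given side by side and not correlated.

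Ccnb2, which encodes cyclin B2, a Cdk1 partner, measured 12.44, 12.26 and 12.15 in B140P against 11.32, 11.03 and 10.98 in B117P. In the resistant lines it measured 12.17, 12.12 and 11.93 in B140H and 11.24, 11.18 and 10.93 in B117H. Both B140 lines lay above both B117 lines on every array. The parental difference was 1.17, or 2.25-fold (interval 0.90 to 1.44, adjusted p = 1.53e-05), and the change within pairs was -0.21 in B140H and 0.01 in B117H, with no call.

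Pttg1, which encodes securin, the inhibitor that holds separase inactive until anaphase, ran the other way. It measured 12.27, 12.08 and 12.25 in B140P against 13.15, 13.26 and 13.25 in B117P, and 12.46, 12.50 and 12.45 in B140H and 13.32, 13.15 and 13.02 in B117H. On every array both B140 lines lay below both B117 lines. The parental difference was -1.02 (interval -1.23 to -0.81, adjusted p = 5.21e-06), and the other 2 probe sets of Pttg1 gave -1.08 and -0.70, both called. Espl1, the separase that securin restrains, averaged 10.89 ± 0.06 in B140P and 10.84 ± 0.09 in B117P (difference 0.06, interval -0.14 to 0.26, adjusted p = 0.837, limma).

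Of the Ndc80 complex, Ndc80 (-0.53, adjusted p = 0.00347) and Nuf2 (-0.50, adjusted p = 0.000596) were lower in B140P than in B117P. Spc24 was higher (0.70, adjusted p = 0.000126), and Spc25 was not called (-0.18, adjusted p = 0.195). Ndc80 measured 9.15, 9.16 and 9.06 in B140P against 9.88, 9.53 and 9.53 in B117P, and Nuf2 11.05, 10.95 and 10.95 against 11.54, 11.40 and 11.51. The groups did not overlap for either gene. Cenpf (-0.78) and Cenpe (-0.74) were also lower in B140P. That makes 4 lower and 1 higher of 7 kinetochore members, where 11.8% of all genes were lower and 12% higher, and the role's count was not tested.

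Cdc20, the activator of the anaphase-promoting complex, was lower in B140P (-0.42, adjusted p = 0.00571). Its call was lost without probe sets whose names end in _s_at or _x_at, which can bind several transcripts (-0.37, adjusted p = 0.0815). The microtubule-depolymerising motor Kif2c was lower as well (-0.58, adjusted p = 0.00821). The centrosomal kinase Nek2 was lower too (-0.35, adjusted p = 0.0343), and its call was lost without any single parental array other than B140P A (adjusted p = 0.05 to 0.144). Depdc1a (4.78, adjusted p = 6.78e-10) and Ttk (0.53, adjusted p = 0.000355) were higher in B140P. So were Kif23, a motor of the spindle midzone (0.46, adjusted p = 0.0105, lost without B140P A at 0.0567), and Mki67 (0.35, adjusted p = 0.0201). The Mki67 call was lost without B140P A, B140P C or B117P C (adjusted p = 0.0645, 0.0913 and 0.0805, limma).

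**Figure D5:**
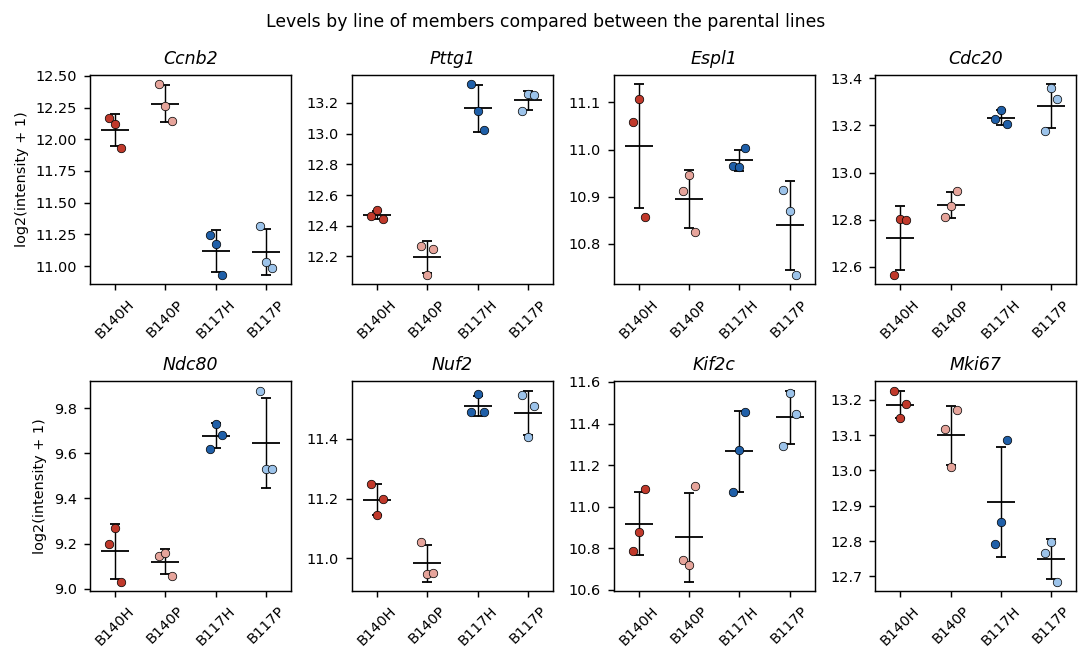
Levels in log2 units of Ccnb2, Pttg1, Espl1, Cdc20, Ndc80, Nuf2, Kif2c and Mki67 in B140H, B140P, B117H and B117P. Points are arrays, bars are means and error bars are SD (n = 3). The B140 lines are above the B117 lines for Ccnb2, below them for Pttg1, and all lines are alike in level for Espl1, between 10.84 and 11.01.

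Among the other 102 mitosis genes, 14 were higher and 15 lower in B140P, 28.4% beside 23.8% of all genes. The largest differences were in the kinase Melk (-1.61, adjusted p = 4.12e-07), Cdca2 (1.47, adjusted p = 1.1e-06), the cohesin release factor Wapl (1.22, adjusted p = 0.000303) and the mitotic kinase Pbk (1.10, adjusted p = 5.35e-07, limma). For Nin the difference was -0.77 (adjusted p = 0.000222).

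The 44 members had 97 probe sets, and 27 members had more than 1. Some of the dimmer ones moved with the array letter. Of the 53 other probe sets, 10 had A arrays over 0.5 log2 units above C arrays on average, up to 2.12, against 0 of the 44 brightest ones. A dim probe set of Cenpf read 8.13 to 9.55 on A arrays, 6.71 to 7.54 on B arrays and 6.12 to 7.17 on C arrays across the 4 lines. The array's own actin probe sets also moved with the letter, the 3′ set exceeding the 5′ set by 0.05 to 0.13 on A arrays, 0.22 to 0.46 on B arrays and 0.27 to 0.50 on C arrays. These ranges overlapped fully between lines, from 0.05 to 0.50 in B140H, 0.13 to 0.42 in B140P, 0.05 to 0.40 in B117H and 0.05 to 0.46 in B117P. What the letters stand for is not given in the labels.

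Where a called member had other probe sets, these were called in the same direction for 0 of 3 genes in B140H, 1 of 2 in B117H (Bub1) and 5 of 8 between the parental lines, and for none in the opposite direction. Another probe set was called where the brightest was not for 0 genes in B140H, 1 in B117H and 4 between the parental lines. Bub1 and Anln were among those 4. Averaging all probe sets of a gene ended the calls of Ttk, Cenpe and Spc25 in B140H (adjusted p = 0.178, 0.175 and 0.17), of Cenpf in B117H (0.524) and of Cenpf and Kif23 between the parental lines (0.159 and 0.101). With only the arrays of the lines compared, Ttk and Ninl in B140H (0.0721 and 0.0712) and Bub1 in B117H (0.0745, limma) did not pass.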

How the data were processed

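One-colour arrays, 12 in all and 3 per line, measured total RNA of 4 mouse AML lines. The deposited values are probe-set intensities made with RMA, per the submitters' processing notes. Which version was run, and with what options, is not given in the sources used here; the linear scale was read from the values (7.65 to 36680 intensity units). RMA compresses low values, and the number of arrays limits the precision: the median residual SD was 0.109 log2 units for members and 0.154 for all probe sets, and the median member's 95% interval was a factor of 1.17 to either side.

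From these deposited intensities, log2(value + 1) was taken with a pseudocount of 1. Of 45101 probe sets, 64 controls were left out and 45037 tested. The platform annotation gave 34945 of them 1 gene symbol, 932 several and 9160 none. Among probe sets of a single symbol, the brightest on average stood for its gene, which gave 18193 genes. The fit was limma 3.58.1 in R 4.3.3 (lmFit, contrasts.fit, eBayes) over all 12 arrays with 1 coefficient per line, two-sided, with Benjamini-Hochberg p-values over all tested probe sets and a call under 0.05. It had 8 residual and 4.65 prior degrees of freedom. It was also run on simulated data with independent noise and no letter effect. That run cannot show how the fit behaves where arrays of one letter share deviations. An exact permutation test of 3 arrays against 3 could not go below p = 0.1 and was not used.

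Replicate letters were checked as pairs by the correlation of deviations from line means. It was 0.587, 0.360 and 0.560 (A, B, C) for B140H and B140P and 0.499, 0.131 and 0.414 for B140P and B117P. For B117H and B117P it was 0.555, 0.028 and 0.392. The value was lowest for letter B in each case, and no cut for calling arrays paired was set. The labels name no pairing, so the main fit has no term for the letter. Its p-values therefore leave out what arrays of one letter share, and the fit with the letter as a replicate block is given as an alternative.

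All 45 members could be named, the 4 called genes with the largest change per comparison from the list of 102 other mitosis genes, and the paralogs Depdc1b and Nin. The members and lists were chosen with earlier results of these data known. Alternatives tried were the letter as a replicate block, only the arrays of the lines compared, brighter probe sets only, centring of arrays on their medians, a further quantile normalization, no pseudocount or one of 16, an intensity trend with a robust prior, averaging the probe sets of a gene, leaving out probe sets whose names end in _s_at or _x_at, and leaving out each array or letter.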

Additional observations from a re-analysis of the deposited data

Results flagged for a closer look

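The change from parental to resistant line differed between the pairs, by limma's interaction test with a call at an adjusted p under 0.05, for 7 members and for 10 of the 102 other mitosis genes (9.80%, beside 10.4% of all genes). Of those 10, the 7 that the rule for naming genes covers are given. Values are the B140 change minus the B117 change in log2 units. Depdc1a differed by -4.52 (adjusted p = 5.86e-07), with the low level in B117P alone, and Ninl by -1.63 (adjusted p = 0.0033), with rises in both pairs. Spc24 differed by -0.69, Anln by -0.65 and Ttk by -0.53, and each was lower in B140H and higher in B117H than in its parent, though of these 6 changes 2 passed, Ttk in B140H and Spc24 in B117H. Cenpe differed by 0.50 and Spc25 by 0.53, and both rose in B140H with changes of 0.06 and -0.08 in B117H that did not pass.

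Among the other mitosis genes, Cenpo differed by -1.09, Ska3 by -0.94, Kif18a, a motor that dampens chromosome oscillation, by -0.84, Ncapg2 by -0.76 and Cdca2 by -0.61. Anapc4 differed by 0.87 and Cks2 by 0.74. The share of members with such a difference, 15.9%, stands beside 10.4% of all genes.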

How the results depend on the processing

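Of 35 called changes of members, over 5 comparisons and 25 alternative settings, 12 passed in every setting and 0 reversed. Those that always passed were Depdc1a in B117H, in the average, in the difference between pairs and between parents, Ninl in B117H and in the average, and Ccnb2, Ttk, Pttg1, Cenpe, Nuf2 and Spc24 between parents, counted over the settings in which the gene was tested. With the letter as a replicate block, 1827 genes passed in the B140 pair. In the B117 pair the block gave 7 members, beside 5 without it, and 2381 genes, beside 1712. With only the arrays of the lines compared, 2 members and 682 genes passed in the B140 pair. Averaging all probe sets of a gene, 2 members passed in the B140 pair, 3 in the average and 3 in the difference between pairs. Over all genes, 1431, 1757 and 2188 passed in these comparisons. Leaving out an array or a letter gave 0 to 5 members and 354 to 1256 genes in the B140 pair, 2 to 5 and 588 to 1913 in the B117 pair, and 2 to 5 and 395 to 1454 in the average. It gave 1 to 7 and 575 to 1879 in the difference, and 9 to 15 and 2698 to 4608 between parents. The lowest counts came without a whole letter, which leaves 2 arrays per line, and the cause of the other shifts was not tested. Brighter probe sets only leaves Ninl untested. Low intensity limits the size of the changes of Ninl and, in B117P, of Depdc1a.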
